A study of Homo sapiens with 7 samples.

Results

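The genes described are the zinc finger genes of chromosome 19 in K562, an established line of chronic myeloid leukemia cells driven by the BCR::ABL1 fusion kinase. A gene was taken as a member when its symbol was ZNF followed by a number, with or without a single letter after it, and when it lay on chromosome 19 only. The rule found 117 members among the 10452 genes whose level reached 10 CPM (the count scaled by its library's total) in at least 2 libraries. A further 137 genes of the same name on chromosome 19 were counted but stayed below that limit, out of 254 counted in all. Of the 117 members, 113 are annotated as protein coding, and ZNF788, ZNF321P, ZNF702P and ZNF542P as pseudogenes or noncoding. ZNF738, ZNF43, ZNF44, ZNF702P and ZNF446 reached 10 CPM in the controls only (4.27% of members, against 2.26% of all genes tested) and ZNF530 in early stage lines only, so that these members entered through the group in which they are high.

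RNA was sequenced from 7 lines, 1 library each. The controls were K562 cells never given drug (naive) and K562 cells kept in the vehicle DMSO, and the other lines were K562 cells made resistant by stepwise exposure to the BCR::ABL1 inhibitor dasatinib (DasR lines). Lines at 10, 15 and 25 nM make up the early stage group and those at 50 and 200 nM the late stage group, a division the study drew from the clustering of these libraries. The DasR lines are successive steps of 1 escalation, no line has a second library, and dose varies within a group, so that p-values measure the spread between lines and not between repeat cultures. All 7 lines carry the BCR::ABL1 fusion of the parent. Total counts were 21007761 and 24037893 in the naive and DMSO lines, 27808639, 27844799 and 20059656 in the early stage lines by rising dose, and 20827519 and 21588772 in the late stage lines.

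The proteins of these genes carry rows of C2H2 zinc fingers, small folds held by a zinc ion that each read a few bases of DNA. Most also carry a KRAB domain, which binds TRIM28 (KAP1), and TRIM28 in turn brings the methyltransferase SETDB1, HP1 proteins and histone deacetylases that keep chromatin silent. The genes arose by repeated duplication, lie in arrays along chromosome 19, and many of their proteins bind transposable elements. Their transcripts are usually scarce, and their own gene bodies are often marked by the same silencing machinery.

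The labels call the cells erythroblasts. All 13 erythroid markers examined reached the 10 CPM limit, and they summed to 4340 and 3577 CPM in the naive and DMSO lines, 10293, 11533 and 8772 in the early stage lines by rising dose and 6120 and 4772 in the late stage lines, with the fetal globin HBG2 the most abundant at a mean of 1728 CPM. The sum was highest in the early stage lines. Of the 13, HBG1, EPOR and TFRC rose past an FDR of 0.005 in early stage and TFRC alone in late stage by edgeR's quasi-likelihood test, where 7.92% and 3.42% of all genes tested rose, while GATA1 differed by -0.18 and NFE2 by 0.17 on the log2 scale in early stage and did not pass. At an unadjusted p under 0.05, 10 of the 13 were higher in early stage and 6 in late stage, against 26.6% and 22.3% of all genes, and none was lower. DESeq2's Wald test called 9 higher in early stage and 1 in late stage at the same FDR, against 33.9% and 23.9% of all genes in both directions. Their part in the results below was not tested. In bulk RNA, fewer cells of a kind and less RNA per cell cannot be told apart. Of 6 megakaryocyte markers only ITGA2B reached the limit, at 65.7, 51.8, 13.4, 5.91, 13.2, 56.9 and 98 CPM from the naive to the 200 nM line, while GP9 and PF4 had 3 counts or fewer in each library. Single genes also reached the limit among 6 lymphoid markers (CD3D, at most 29.2 CPM) and 6 monocyte and granulocyte markers (LYZ, at most 102 CPM), whereas MS4A1, LCK, MPO and ELANE had 3 counts or fewer throughout. None of 6 stromal markers reached the limit in 2 libraries, and COL1A2 was at 14.1 CPM in DMSO alone.

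Shared sequence is one of the ways in which these genes resemble each other. The stretch just upstream of several members is shown because members in which it is similar had different levels across the lines. The following are the 100 bases before the annotated transcript start, 5′ to 3′ on the strand of the gene, from RefSeq on GRCh38.p14, for ZNF431 (chr19:21141940-21142039, plus strand), ZNF43 (chr19:21836183-21836282, minus strand), ZNF91 (chr19:23395472-23395571, minus strand) and ZNF93 (chr19:19900846-19900945, plus strand). Capitals mark CCAATCAG, a CCAAT box, and CTTCCGG, the core of many ETS factor sites.
ZNF431: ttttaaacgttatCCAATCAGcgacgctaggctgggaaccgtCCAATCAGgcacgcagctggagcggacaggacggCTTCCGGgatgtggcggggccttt
ZNF43: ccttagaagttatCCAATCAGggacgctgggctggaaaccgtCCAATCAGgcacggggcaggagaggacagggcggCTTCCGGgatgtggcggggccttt
ZNF91: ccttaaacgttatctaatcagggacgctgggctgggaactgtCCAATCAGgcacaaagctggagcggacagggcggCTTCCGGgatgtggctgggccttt
ZNF93: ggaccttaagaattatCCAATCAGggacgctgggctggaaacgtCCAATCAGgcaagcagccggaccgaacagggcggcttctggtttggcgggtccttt

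ZNF431 and ZNF91 were identical over 90% of the aligned stretch, ZNF43 and ZNF91 over 89%, and ZNF431 and ZNF93 over 78.6%. In the first 3 genes the CTTCCGG letters began 24 bases before the start, and ZNF93 had no such letters in the stretch. Promoters were listed for 100 of the 117 members, and 9 of the other 99 were at least 70% identical to ZNF431 over the same stretch (ZNF714, ZNF430, ZNF91, ZNF681, ZNF43, ZNF93, ZNF493, ZNF100 and ZNF254), a limit set after the identities were seen. The next highest identity was 57.8%, and the median of the other 90 was 42.5%. All 10 genes lie between positions 20011722 and 24312770 of chromosome 19 on hg19, the build of the counts.

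Over the whole promoter (250 bases before to 50 after the start, either strand), the ETS letters CCGGAAG were present in 53.0% of the members' promoters, in 22.0% of the 8339 promoters listed for tested genes and in 10.7% of all 27305 promoters. CCAATCAG, searched after the sequences had been seen, was in 25.0% of members, 5.77% of tested genes and 4.16% of all promoters. GCATGCGC, an NRF1-like sequence, was in 1% of members and 6.24% of tested genes. The Sp1-like GGGGCGGGG was in 32.0% and 28.4%, TGACGTCA (the CRE) in 6% and 3.62%, ACTACAA in 8% and 4.17%, GATGGCG in 8% and 8.62%, and CTCGCGAGA in 1% and 1.69%. A match gives letters only and does not show that a factor binds.

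Members were expressed at low levels. Per kilobase, the mean level over the 7 lines had a median of 6.42 RPKM over the members, from 0.623 (ZNF738) to 54.6 (ZNF146), against a median of 15.4 RPKM over all genes tested. ZNF146, a protein of fingers without a KRAB domain, led with 198 and 212 CPM in the controls, 213, 207 and 227 in the early stage lines and 203 and 215 in the late stage lines, which is an almost flat profile. The next by RPKM were ZNF121 (46.9), ZNF431 (19.9), ZNF562 (19.6) and ZNF587 (18.8), the last of them known for binding endogenous retroviruses. Counts of members ranged from 42 to 5904 with a median of 511. At the median member count of a library, counting error alone gives a 95% interval that reaches between 7.47% and 9.45% of the count to either side, depending on the library. Together the members took 0.341% and 0.337% of counts in the controls, 0.357%, 0.370% and 0.365% in the early stage lines and 0.328% and 0.305% in the late stage lines.

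The members varied less across the lines than genes in general. The median range of log2 CPM over the 7 lines was 0.56 for the members and 0.70 for all genes tested, and 22 members (18.8%) had a range over 1 against 28.4% of all genes. In all 5 DasR lines, 77 members (65.8%) stayed within 1.5-fold of the control mean, against 51.6% of all genes. These shares describe the members and were not tested. The heat map of all members shows most rows pale, with a few rows of strong change.

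**Figure D1:**
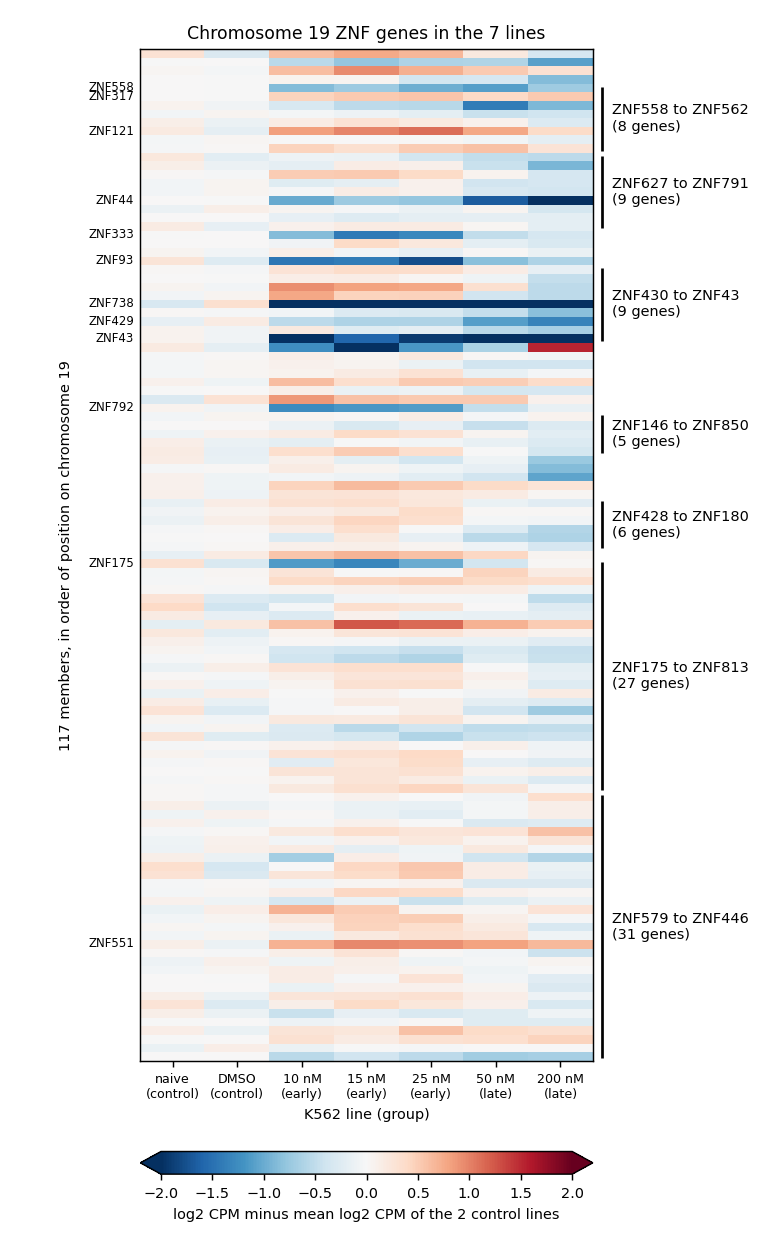
Each row is 1 of the 117 members in order of position on chromosome 19 and each column 1 line with its group, and the color gives log2 CPM minus the mean log2 CPM of the 2 control lines, cut at 2 on either side. Bars at the right mark runs of at least 5 members and names at the left the members that passed FDR 0.005 against control. Most rows stay near 0, ZNF738 and ZNF43 are dark blue in all 5 DasR lines, and the 200 nM column is the bluest overall.

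As a group, the members sat slightly above control in the early stage lines and below it in the late stage lines. The median difference from the mean of the controls, on the log2 scale, was 0.07, 0.12 and 0.08 in the early stage lines, by rising dose, and -0.05 and -0.23 in the 50 and 200 nM lines, while the controls themselves lay at 0.01 (naive) and -0.01 (DMSO). The pooled SD of these medians between lines of a group was 0.06. The 200 nM line was the one that stood apart: 52 members (44.4%) had their lowest level there, against 21.0% of all genes, and 84 members (71.8%) were lower at 200 nM than at 50 nM, against 50.4% of all genes. The highest level was at 15 nM in 32 members (27.4%, against 19.3% of all genes), at 25 nM in 27 (23.1%, against 7.25%) and in the naive line in 25 (21.4%, against 22.2%). The 175 ZNF genes on other chromosomes had medians of 0.06, 0.07, 0.07, -0.07 and -0.16 over the same 5 DasR lines, an order like that of the members. The 582 other genes of chromosome 19 had -0.02, 0.06, -0.02, 0.01 and 0.13, with the 200 nM line highest. These medians were not tested against each other.

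**Figure D2:**
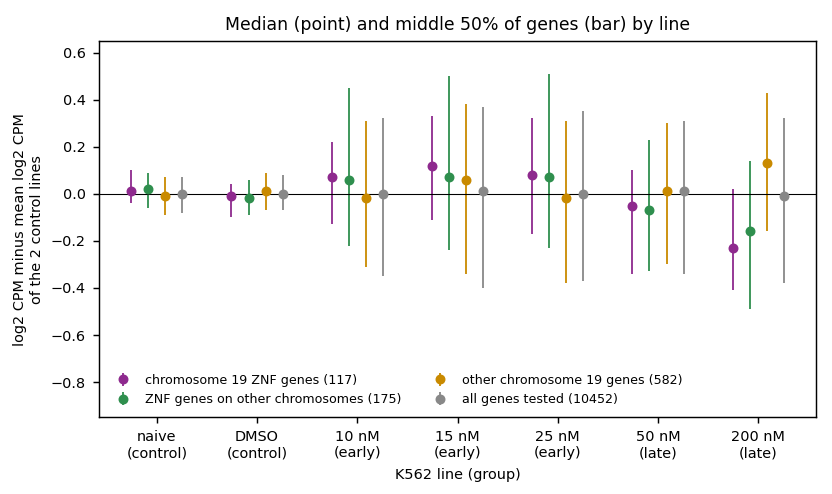
Points give the median over genes of log2 CPM minus the control mean in each line, and bars the middle 50% of genes, for the members, ZNF genes on other chromosomes, other chromosome 19 genes and all genes tested. The members lie highest at 15 nM (0.12) and lowest at 200 nM (-0.23), where other chromosome 19 genes lie at 0.13.

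The first comparison asked which genes differ between early stage lines and controls. In the quasi-likelihood fit of edgeR, adjusted by Benjamini-Hochberg over all genes, 10 members passed the study's threshold of FDR 0.005, 8.55% of the 117 against a background of 18.0% of all genes tested. ZNF317, ZNF121 and ZNF551 rose, where the background in this direction is 7.92%, and ZNF738, ZNF43, ZNF93, ZNF792, ZNF175, ZNF558 and ZNF333 fell, where it is 10.1%. The median log2 fold change of all 117 members was 0.08, with 73 above 0, against a median of 0.00 over all genes. At FDR 0.05, 14 members were higher and 12 lower, against 22.6% and 24.0% of all genes, and DESeq2's Wald test called 22 members at FDR 0.005 against 33.9% of all genes. Fewer passed when an early stage line was left out: 7 without 10 nM, 4 without 15 nM and 2 without 25 nM. Fewer also passed without either control, which leaves 1 library in that group. Leaving out a late stage line did not lower the count. The fold changes of these 10 members kept their direction when any 1 line was left out, with ZNF558 between -0.92 and -0.80, ZNF175 between -1.45 and -0.84 and ZNF738 between -3.11 and -2.47. Exons of ZNF558, ZNF44, ZNF333, ZNF93, ZNF175 and ZNF429 overlap a gene on the opposite strand, whose reads cannot be told apart if strand was not used in counting.

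Among the 117 members, the fall largest in size in early stage against control was in ZNF738 (chr19:21541732-21571384 on hg19, 5 fingers found). This gene reached the 10 CPM limit in the controls only and so could only be lower elsewhere. It had 14.9 CPM in the naive line and 23.2 in DMSO, 3.07, 2.78 and 2.19 in the early stage lines, and 3.08 and 1.92 in the late stage lines. No DasR line overlapped a control, and early and late stage lines overlapped each other. The log2 fold change was -2.82 ± 0.30 (SE) for early stage (adjusted p 0.000695) and -2.93 ± 0.36 for late stage (adjusted p 0.00187), while the late stage call was lost with limma voom (adjusted p 0.0056). Without a control line the adjusted p reached 0.00789 in early stage, and in late stage it reached 0.0137 without a control, the 25 nM or a late stage line. An exon of ZNF738 overlaps another annotated gene on the same strand, so its reads may be shared.

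ZNF43 (chr19:21987752-22034927, 19 fingers found) was the other member past the threshold against control at both stages, and it too reached the limit in the controls only. It had 20.9 and 18.9 CPM in the naive and DMSO lines, 4.29, 6.55 and 5.23 at 10, 15 and 25 nM, and 2.02 and 2.47 at 50 and 200 nM. The 3 groups did not overlap, with controls highest and late stage lowest. Early stage lines fell by 1.89 ± 0.23 on the log2 scale (adjusted p 0.00101) and late stage lines fell by 3.14 ± 0.28 (adjusted p 0.000833). Without the naive or the DMSO line neither change passed the threshold, nor did the early stage change without the 25 nM line, with adjusted p up to 0.0144 in early and 0.00955 in late stage.

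ZNF93 (chr19:20011722-20074273, 16 fingers found), known to bind and repress LINE-1 elements, had 26.9 and 18.8 CPM in the controls, 8.26, 8.48 and 6.47 in the early stage lines and 12.6 and 14.6 in the late stage lines. Early stage lines were lowest and the controls highest, with no overlap. Its change was -1.56 ± 0.21 in early stage (adjusted p 0.00144) and -0.75 ± 0.23 in late stage, which did not pass (adjusted p 0.0401). The early stage call was lost without the naive or the 25 nM line, with an adjusted p of at most 0.015.

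A similar order, with the early stage lines lowest and the late stage lines between them and the controls or level with the controls, was seen in ZNF792, ZNF175 and ZNF333. ZNF792 (chr19:35447258-35455133) had 33.7 and 30.4 CPM in the controls, 13.3, 14.3 and 14.7 in the early stage lines and 22.8 and 28.7 in the late stage lines, a change of -1.18 ± 0.13 in early stage (adjusted p 0.000812, and up to 0.00992 without a control line). In ZNF175 (chr19:52074536-52095763) the controls were at 88.3 and 58.0 CPM, the early stage lines at 32.4, 29.0 and 35.8 and the late stage lines at 55.2 and 73.3, so that late stage lines overlapped the controls. Its early stage change was -1.18 ± 0.20 (adjusted p 0.00366, and up to 0.0265 without the naive or an early stage line). ZNF333 (chr19:14800613-14844558) had 14 and 14.1 CPM in the controls, 7.69, 5.17 and 5.68 in the early stage lines and 9.91 and 11.1 in the late stage lines, a change of -1.18 ± 0.21 in early stage (adjusted p 0.00441), a call that held when the 10 nM line was left out and was lost without any other line (up to 0.0318) and with only the groups compared in the fit (0.00622). ZNF558 (chr19:8916846-8942990) was instead low at both stages, with 41.6 and 41.0 CPM in the controls, 22.6, 25.0 and 21.0 in the early stage lines and 19.2 and 25.1 in the late stage lines. It fell by 0.85 ± 0.14 in early stage (adjusted p 0.00321), and the change of -0.90 ± 0.16 in late stage missed the threshold (adjusted p 0.00638). Its early stage call was lost without any of the control or early stage lines (up to 0.0263).

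Of the members that rose, ZNF121 (chr19:9671005-9695180), in which no KRAB-like stretch was found, had 58.7 and 46.0 CPM in the controls, 91.7, 102 and 113 in the early stage lines and 89.4 and 67.5 in the late stage lines. Its early stage change was 0.96 ± 0.17 (adjusted p 0.0039), and the call was lost without any of the 5 lines compared (up to 0.0286). ZNF551 (chr19:58193337-58228669) had 16.3 and 13.9 CPM in the controls, 24.3, 29.2 and 28.2 in the early stage lines and 26.4 and 23.5 in the late stage lines, a change of 0.85 ± 0.14 (adjusted p 0.00303, and up to 0.0224 without a control, the 15 or the 25 nM line). Its exons overlap another coding gene on the same strand. ZNF317 (chr19:9251073-9274100) moved least, from 50.5 and 49.7 CPM in the controls to 68.0, 71.8 and 73.5 in the early stage lines and 65.9 and 72.4 in the late stage lines, a change of 0.50 ± 0.09 (adjusted p 0.00375, and up to 0.0244 without any of the 5 lines compared). In all 3 genes every DasR line lay above both controls, and none of the late stage changes passed the threshold (adjusted p 0.0425, 0.0109 and 0.0106).

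**Figure D3:**
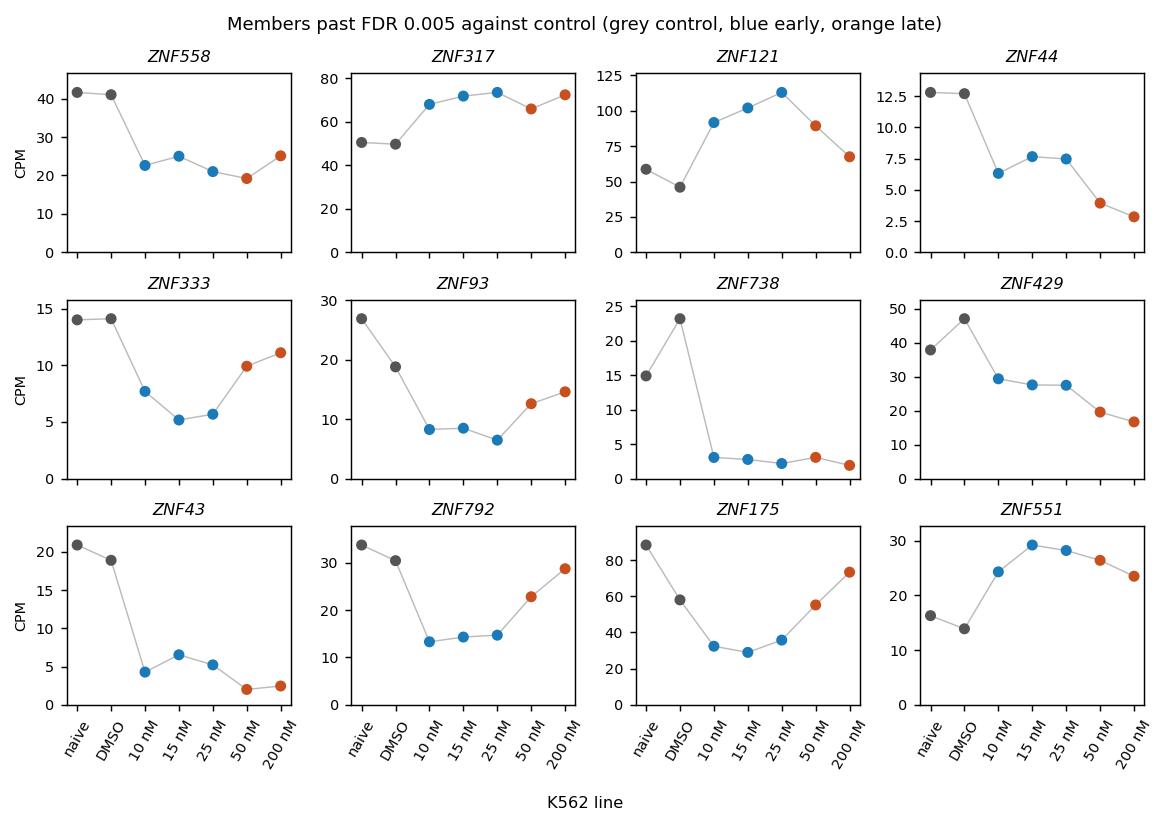
Each panel shows 1 of the 12 members past FDR 0.005 in early or late stage lines against control, with CPM on a linear axis from 0 against the 7 lines, and grey, blue and orange points for control, early and late stage lines. ZNF738 and ZNF43 drop in all DasR lines, whereas ZNF792 and ZNF175 are lowest in the early stage lines and reach 28.7 and 73.3 CPM at 200 nM.

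The second comparison set late stage lines against the same controls. By the same edgeR test, ZNF738, ZNF43, ZNF44 and ZNF429 fell past FDR 0.005, 3.42% of members against 7.98% of all genes in both directions and 4.56% in this one. Of these 4, ZNF738, ZNF43 and ZNF44 reached the 10 CPM limit in the controls only, and ZNF429 reached it in all 7 lines. No member rose past FDR 0.005, where the background is 3.42%. Without adjustment, 11 members (9.4%) were higher and 29 (24.8%) lower at p under 0.05, against 22.3% and 23.7% of all genes, and DESeq2's Wald test called 2 higher and 8 lower against 23.9% of all genes in both directions. At FDR 0.05, 8 members were higher and 19 lower, against 16.2% and 17.6%. The median log2 fold change was -0.12 with 37 of 117 above 0, against 0.00 over all genes, and the median was -0.23 without the 50 nM line and -0.06 without the 200 nM line. The count was 0 without the naive or the DMSO line and 1 without the 25, 50 or 200 nM line.

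ZNF44 (chr19:12335501-12405698, 14 fingers found) had 12.8 and 12.7 CPM in the naive and DMSO lines, 6.32, 7.66 and 7.47 in the early stage lines, and 3.94 and 2.84 at 50 and 200 nM. The groups did not overlap and the late stage lines were lowest, at -1.91 ± 0.25 against control (adjusted p 0.00229). ZNF429 (chr19:21679484-21739072, 15 fingers found) had 37.9 and 47.1 CPM in the controls, 29.4, 27.6 and 27.5 in the early stage lines and 19.6 and 16.7 in the late stage lines, again in separate steps, with a late stage change of -1.23 ± 0.15 (adjusted p 0.0018). Its exons overlap LINC00664 on the same strand. The late stage calls of ZNF738, ZNF44 and ZNF429 were lost when the fit held the 4 libraries of these groups alone (adjusted p 0.00576, 0.00965 and 0.00786). Without a control, the 25 nM or a late stage line, ZNF44 and ZNF429 did not pass either, with adjusted p up to 0.0196 and 0.00909.

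The third comparison, late against early stage lines, shares its libraries with the other comparisons. Of all genes tested, 0% passed FDR 0.005 by edgeR's quasi-likelihood test, with a smallest adjusted p of 0.0167, whereas 3450 genes in all had an unadjusted p under 0.05. Among them were 34 members lower (29.1%) and 5 higher (4.27%) in late stage, against 16.6% and 16.4% of all genes. DESeq2's Wald test called 9 members (10.9% of all genes). At FDR 0.05, 4 members were higher and 8 lower, against 6.60% and 6.10% of all genes. The median over members was -0.25 and 22 of 117 were above 0, against -0.01 and 49.3% over all genes. ZNF genes on other chromosomes had -0.18 and other chromosome 19 genes 0.07. In 62 members (53.0%) both late stage lines lay below all 3 early stage lines, against 26.8% of all genes, and in 8 (6.84%) both lay above, against 26.6%. The members thus stood lower in late than in early stage lines in a larger share than genes in general. No single member passed FDR 0.005 by edgeR's quasi-likelihood test with the 10 CPM limit and all lines, whereas DESeq2 called 9. ZNF genes on other chromosomes also leaned this way, with both late stage lines below all 3 early stage lines in 45.7% and above in 12.6%. At FDR 0.05, 13.1% of those genes were lower and 1.71% higher.

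The members lower in late stage with the smallest p were ZNF708, ZNF43, ZNF429, ZNF44 and ZNF440. ZNF708 (chr19:21473962-21512227) had 27.4 and 29.8 CPM in the controls, 49.0, 38.9 and 39.5 in the early stage lines and 21.8 and 19.7 in the late stage lines. The early stage lines were above both controls and the late stage lines below both, and late stage differed from early stage by -1.03 ± 0.14 (adjusted p 0.0167). In ZNF440 (chr19:11925088-11946031) the controls were at 39.1 and 37.6 CPM, the early stage lines at 54.3, 54.9 and 50.2 and the late stage lines at 40.2 and 30.6 (-0.59 ± 0.13, adjusted p 0.0317). ZNF44 and ZNF43 differed by -1.08 ± 0.23 (adjusted p 0.0294) and -1.25 ± 0.25 (adjusted p 0.0262).

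Those higher in late stage with the smallest p were ZNF792, ZNF175, ZNF91, ZNF93 and ZNF333. The largest of these steps was in ZNF91 (chr19:23487793-23578273, 31 fingers found), whose protein is known to repress SVA elements. ZNF91 had 10.7 and 8.39 CPM in the controls, 3.97, 2.28 and 4.18 in the early stage lines, 6.11 at 50 nM and 27.3 at 200 nM. The 200 nM line alone was above the controls, and the late stage lines differed from the early stage lines by 2.27 ± 0.58 (adjusted p 0.0448). The size rested on the 200 nM line: the difference was 0.82 without it (adjusted p 0.329) and 2.98 without the 50 nM line (adjusted p 0.00445), and limma voom gave 2.01 with all lines (adjusted p 0.128). ZNF792 and ZNF175 lay nearer to the controls in late than in early stage, with differences of 0.87 ± 0.13 (adjusted p 0.0169) and 0.99 ± 0.20 (adjusted p 0.0266).

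Values also differed along the chromosome. With runs of neighbours whose starts lie under 1 Mb apart, 95 members fell into 7 runs of at least 5, and 22 lay outside. The run from ZNF430 to ZNF43 (9 members, positions 21203440 to 22034927) had the lowest median in late against early stage, -0.53, with 0 of 9 above 0. Medians of the other runs were -0.43 for ZNF428 to ZNF180 (6 members), -0.33 for ZNF627 to ZNF791 (9), -0.21 for ZNF558 to ZNF562 (8), -0.18 for ZNF146 to ZNF850 (5), -0.16 for ZNF579 to ZNF446 (31) and -0.15 for ZNF175 to ZNF813 (27). The runs ZNF428 to ZNF180 and ZNF146 to ZNF850 also had 0 members above 0. The runs ZNF627 to ZNF791 and ZNF558 to ZNF562 had 1 each, and the 2 long runs 11 of 31 and 5 of 27. Genes of a run are not independent of each other, and the runs were not tested against each other. With limits of 0.5 and 2 Mb the members formed 8 and 6 such runs.

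**Figure D4:**
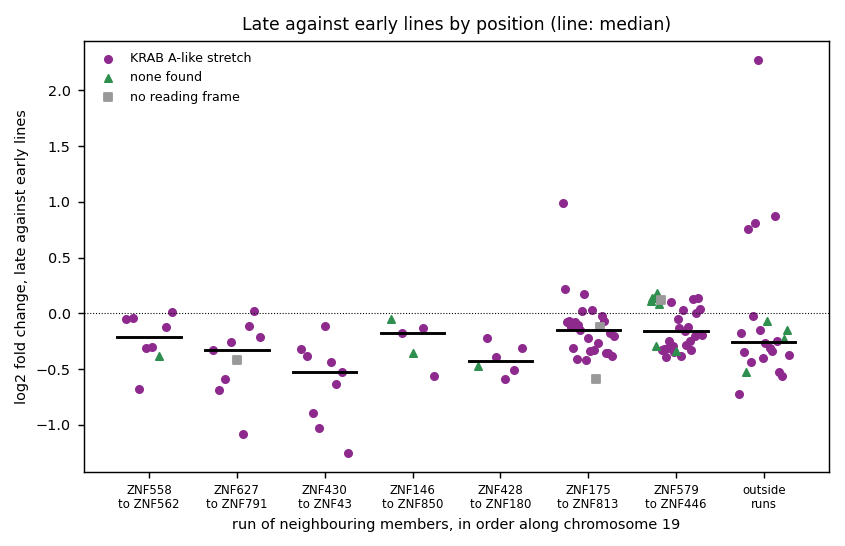
Each symbol is a member and the vertical axis gives its log2 fold change in late against early stage lines, for the 7 runs of neighbouring members and the 22 members outside them, with a line at the median and the symbol giving the KRAB-like stretch. The run from ZNF430 to ZNF43 lies wholly below 0 with a median of -0.53. The runs ZNF428 to ZNF180 and ZNF146 to ZNF850 also lie wholly below 0, and the single highest symbol is ZNF91 at 2.27.

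The 10 members with the similar upstream stretches described above did not move alike. ZNF431 (chr19:21324827-21378856) had 60 and 55 CPM in the controls, 109, 101 and 98.9 in the early stage lines and 71.8 and 39.7 in the late stage lines, a change of 0.84 ± 0.22 in early stage that did not pass (adjusted p 0.0194). ZNF43 and ZNF93 fell in the same lines, as given above, and ZNF714 did not pass FDR 0.005 in any of the 3 comparisons, at 99.5 and 97.9, then 109, 109 and 102, then 93.2 and 70.6 CPM. In early stage against control 5 of the 10 were above 0 and 5 below, from -1.89 (ZNF43) to 0.84 (ZNF431). In late against early stage 8 of the 10 were below 0, with a median of -0.39, the exceptions being ZNF91 and ZNF93. In that comparison 95 of all 117 members were below 0, with a median of -0.25, and 5301 of all 10452 genes tested. The 25 members with CCAATCAG had medians of 0.01, -0.25 and -0.33 in early against control, late against control and late against early stage, and the 75 without it 0.09, -0.11 and -0.20. The 53 members with CCGGAAG had 0.09, -0.06 and -0.20, and the 47 without it 0.07, -0.19 and -0.26.

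A KRAB-like stretch was found in 98 members, with a median of 13 fingers, and in 15 coding members none was found, with a median of 9 fingers. Of the former, 2 rose and 7 fell in early stage, against 7.92% and 10.1% of all genes, and 4 fell in late stage, against 4.56%, with medians of 0.09, -0.16 and -0.26 in the 3 comparisons. Of the latter, ZNF121 alone was called, and the medians were 0.24, 0.03 and -0.15. The falls with the stretch include ZNF738 and ZNF43 at both stages and ZNF44 in late stage. These genes reached the 10 CPM limit in the controls only and so could only be lower elsewhere. At 200 nM the medians against the control mean were -0.25 with the stretch and 0.11 without it. The group without it is small, and the difference between the groups was not tested.

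ZNF274, which binds the ends of other zinc finger genes and recruits SETDB1 to them, had 49.7 and 42.6 CPM in the controls, 34.0, 40.9 and 37.3 in the early stage lines and 38.6 and 43.4 in the late stage lines. It passed no comparison (adjusted p 0.0773, 0.353 and 0.488), and its late stage lines overlapped both other groups.

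The corepressors that KRAB proteins work through were measured beside them. Of 33 genes listed, 32 were matched and all 32 were tested. In early stage TRIM28, SUV39H2, DAXX and DNMT3A rose and none fell, and in late stage CBX3 and DNMT3A rose and none fell, that is, 4 and 2 of 32 against 7.92% and 3.42% of all genes that rose, with list medians of 0.08 and 0.15 against 0.00 over all genes. At an unadjusted p under 0.05, 10 were higher and 0 lower in early stage and 10 higher and 1 lower in late stage, against 26.6% and 27.6% of all genes in early and 22.3% and 23.7% in late stage, and DESeq2's Wald test called 5 higher and 0 lower at either stage, against 33.9% of all genes in early and 23.9% in late stage in both directions. TRIM28, the scaffold itself, had 509 and 519 CPM in the controls, 680, 745 and 688 in the early stage lines and 556 and 594 in the late stage lines. The early stage lines were above all others, by 0.45 over control (adjusted p 0.0048), and the late stage change was 0.16 (adjusted p 0.213). The early stage call was lost in 11 of 14 alternatives, each line left out among them, with an adjusted p of at most 0.0335.

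SETDB1, the methyltransferase TRIM28 recruits, was at 90.1 and 83.9, then 84.6, 75.8 and 76.9, then 78.5 and 94.6 CPM, and the late stage lines overlapped the controls (adjusted p 0.322 and 0.956). MORC2, which acts with the HUSH complex, was at 74.4 and 75.1, then 89.5, 88.6 and 92.2, then 90.2 and 87.3 CPM, above both controls in all DasR lines but not past the threshold (adjusted p 0.0222 and 0.0527). DNMT3A, a de novo DNA methyltransferase, was at 20.6 and 20.9 CPM in the controls, 39.4, 39.7 and 34.7 in the early stage lines and 41.3 and 36.6 in the late stage lines. It rose by 0.87 in early stage (adjusted p 0.00132) and 0.90 in late stage (adjusted p 0.00258). SUV39H2, a histone methyltransferase, rose by 0.72 in early stage (adjusted p 0.00273), DAXX, a histone chaperone, by 0.61 (adjusted p 0.00264), and CBX3, an HP1 protein, by 0.68 in late stage (adjusted p 0.00444). All 5 calls were lost without the naive or the DMSO line, the early stage calls also without 15 nM, and those of SUV39H2 and DAXX without 25 nM. The late stage calls of CBX3 and DNMT3A were lost in 7 of 14 alternatives, among them the fit of the groups compared alone and those without the 10, 25, 50 or 200 nM line, with adjusted p up to 0.0311 and 0.0216.

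Of 22 other zinc finger genes of chromosome 19 that the naming rule leaves out, 19 were matched and 6 tested. None passed FDR 0.005 in either comparison with control by edgeR's test. At an unadjusted p under 0.05, 2 of the 6 were higher and 2 lower in early stage, against 26.6% and 27.6% of all genes, and 1 was higher and 2 lower in late stage, against 22.3% and 23.7%. DESeq2's Wald test called 0 in early and 1 in late stage, against 33.9% and 23.9% of all genes. ZFP30, a KRAB gene, came closest in late stage, with 15.5 and 14.7 CPM in the controls, 8.26, 13.9 and 11.1 in the early stage lines and 4.91 and 2.47 in the late stage lines (-2.04, adjusted p 0.0074).

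The 137 genes below the limit were examined in a fit of all 14899 genes with at least 1 CPM in 2 libraries, which held 108 of them. In early stage 1 of them (ZNF85) rose and 5 fell, against 6.39% and 7.89% of all genes, and in late stage 0 rose and 2 fell, against 2.50% and 3.05%. At an unadjusted p under 0.05, 8 were higher and 23 lower in early stage, against 24.9% and 25.4% of all genes in that fit, and 3 higher and 31 lower in late stage, against 20.7% and 21.4%. Their median was -0.28 in early stage and -0.27 in late stage, against 0.00 and -0.01 over all genes in that fit. ZNF844 had 129 and 162 counts in the controls, 8, 6 and 13 in the early stage lines and 4 and 22 in the late stage lines, a change of -4.11 ± 0.61 in early stage (adjusted p 0.00255). ZNF331 had 160 and 110 counts, then 34, 42 and 16, then 10 and 14, and fell at both stages, by 2.37 ± 0.36 (adjusted p 0.00264) and by 3.41 ± 0.45 (adjusted p 0.00282). ZNF85 had 28 and 37 counts, then 185, 237 and 92, then 110 and 84, and lay higher in all DasR lines than in the controls, by 2.18 ± 0.33 in early stage (adjusted p 0.00263). ZNF433, ZNF419 and ZNF585B were the other genes that fell in early stage.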

How the data were processed

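The authors extracted RNA with phenol and chloroform, made directional libraries after depletion of ribosomal and noncoding RNA, sequenced paired reads, aligned them to hg19 with STAR and, per the submitters' processing notes, counted with featureCounts. The labels give the molecule as polyA RNA, while their protocol describes depletion of total RNA, so which noncoding RNAs were kept is not certain. The deposited counts per gene are not normalized. Versions and the strand setting of the counting were not given in the sources used here. The deposited comparison tables gave gene names, chromosomes and the gene length (another value per gene, in bases, deposited by the authors). Their fold changes, p-values and FDR values were not used. 

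Genes with 10 CPM in at least 2 of 7 libraries were kept. In R 4.3.3, edgeR 4.0.16 scaled them by TMM and fitted 1 coefficient per group (glmQLFit), and contrasts were tested with glmQLFTest. DESeq2 1.42.0 and limma 3.58.1 (voom) were alternatives, beside other scalings, filters, libraries in the fit, thresholds, and leaving out each line. CPM and RPKM use TMM-scaled totals, log2 CPM a prior count of 2. The common dispersion was 0.026, a coefficient of variation of 0.161. Total counts were 20059656 to 27844799. Counts of lines of a group differed by more than sampling noise (chi-square per degree of freedom 21.1 to 70.1). The functions were tested on simulated data.

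The members and lists were chosen with earlier results of these data known. Named members were the 10 with the smallest p past FDR 0.005 in each direction against control, the 5 with the smallest p in each direction in late against early stage, the 5 highest by RPKM, the 5 with the largest range, any at 3 counts or fewer (none) and ZNF274. Of the pathway list, TRIM28, SETDB1, MORC2 and those past FDR 0.005 were named. Other genes named were chosen after their values were seen. Positions on GRCh37 (hg19) came from GENCODE by symbol, for all 117 members, and promoters from RefSeq on GRCh38.p14. Fingers were counted by a C2H2 spacing pattern in the longest reading frame per gene of GENCODE transcripts, since no protein table was used here. Fingers that depart from the pattern are missed, so a protein may carry more. The KRAB-like stretch was sought in the longest frame of every coding transcript of a gene, with a profile built from matches among the ZNF genes tested. Exons of 49 members overlap another annotated gene on the same strand and those of 40 one on the opposite strand, and close paralogs may share reads, so their counts are less certain.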

Additional observations from a re-analysis of the deposited data

Results flagged for a closer look

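In 4 members all early stage lines lay above both controls and both late stage lines below both in CPM. No change of these 4 against control passed FDR 0.005 at either stage. The difference itself is the late against early stage comparison, and by edgeR's quasi-likelihood test it passed FDR 0.005 in none of them. ZNF708 differed by -1.03 on the log2 scale (adjusted p 0.0167), from 0.57 in early stage (adjusted p 0.0127) to -0.47 in late stage (adjusted p 0.0472). The difference in ZNF708 did pass FDR 0.005 by DESeq2's Wald test (adjusted p 1.51e-07). It also passed in edgeR with no filter beyond 1 count (adjusted p 0.00421). ZNF714 differed by -0.38 (adjusted p 0.081), from 0.11 (adjusted p 0.486) to -0.27 (adjusted p 0.153). ZNF761 differed by -0.38 (adjusted p 0.0541), from 0.17 (adjusted p 0.221) to -0.21 (adjusted p 0.179). ZNF180 differed by -0.31 (adjusted p 0.241), from 0.09 (adjusted p 0.683) to -0.22 (adjusted p 0.379). These are 3.42% of members, against 1.87% of all genes tested with that order. The reverse order, early stage below and late stage above both controls, was seen in 0 members and 2.14% of all genes. Over both orders together it is 3.42% of members and 4.01% of all genes.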

How the results depend on the processing

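None of the recomputed fold changes and medians of members or corepressors turned its direction. The corepressors were added to these checks after the data were seen. All refits draw on the same 7 libraries. ZNF738, ZNF43 and ZNF44 entered the main fit through the controls, the only group in which they reached 10 CPM. The 14 calls of single members against control kept FDR 0.005 in 93 of 98 refits that changed the test, scaling, filter or libraries compared, and in 43 of 98 that left out a line. Of all early stage calls, ZNF738 and ZNF792 were lost only without a control line, and ZNF93 only without the naive or the 25 nM line. The number of members past the threshold in early stage was 10, and 26 at FDR 0.05, 22 by DESeq2 and 0 to 10 when a line was left out. In late stage it was 4, and 27 at FDR 0.05, 10 by DESeq2, 1 with only the groups compared in the fit and 0 to 4 when a line was left out. Between the stages it was 0, and 12 at FDR 0.05, 9 by DESeq2, 1 with no filter beyond 1 count (ZNF708) and 0 to 2 when a line was left out. The cause of these differences was not tested. The median over members ranged from 0.06 to 0.10 in early stage, from -0.23 to -0.06 in late stage and from -0.33 to -0.18 between the stages when a line was left out. Dose, time in culture, stage and the reported changes in BCR::ABL1 and ABCG2 cannot be told apart in 1 escalation with 1 library per line. No paired analysis was possible because the labels give the lines no shared replicate numbers.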
